A study of Caenorhabditis remanei with 28 samples.

Results

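The 8 libraries of heat-selected Caenorhabditis remanei larvae were divided into replicates 3, 4, 5 and 6 on one side and replicates 1, 2, 7 and 8 on the other. They are 8 of 28 libraries in the series. The division was noticed in the expression values of these same libraries, so every difference between the sides is a description and carries no test. The heat-selected worms were derived from strain PX443, as were a control-selected population (n = 8) and the oxidative-selected worms (n = 6), and PX443 itself is the ancestor (n = 6, replicates 3 to 8). All populations were grown at 20 °C on bacteria. Embryos obtained by bleaching were held in buffer without food for 20 h, and each replicate was a pool of about 100000 first-stage (L1) larvae that had passed a 20 µm filter. The protocol names 20 °C and 30 °C for this incubation and the series' design text gives 20 °C, while the heat and oxidative titles give no temperature. The design text counts 1 evolved population per selection regime, and the labels do not say how selection was applied. The labels give no batch, culture or date for the replicate numbers, so a p-value here reflects only how these libraries vary, and that variation may be technical.

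Caenorhabditis remanei is a nematode with separate males and females. In its relative C. elegans, larvae that hatch without food arrest at the L1 stage and wait for food, with metabolism and growth programmes turned down. Poly-A RNA from a pool of such larvae gives an average over all their cells, so that fewer cells of a type and less RNA per cell cannot be told apart. The deposited tables give gene identifiers without names. Of the 25337 identifiers, 0 matched the RefSeq gene table of the species, so the genes are given by identifier, no function or position is stated, and no stage or tissue marker could be checked.

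The gene counts per library ran from 1406684 to 15755610 over the series. Within the heat population, replicates 1 and 2 were the shallowest (1555582 and 1406684 counts) and replicates 7 and 8 the deepest (8078381 and 9357212). Replicates 3, 4, 5 and 6 lay between them, with 3694143, 2277854, 4306080 and 2663507 counts. The side of replicates 1, 2, 7 and 8 therefore held both ends of the depth range. After each heat library was thinned to the depth of the smallest, between 13935 and 14927 genes had a count in replicates 3 to 6 and between 13842 and 15603 in the other heat libraries, with overlapping ranges. The 28 pairs of heat libraries differed by more than sampling noise, with a chi-square per degree of freedom between 4.87 and 71.6. Each was counted as 1 sample, but this measure cannot show whether the libraries came from separate cultures.

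Reads that aligned but were assigned to no gene in counting, called reads outside genes here, were 31.4%, 39.1%, 25.6% and 37.3% of all reads in heat replicates 3, 4, 5 and 6. The annotation and the strand rule of the counting are not given, so the place of these reads in the genome is not shown. The shares were 22.9%, 26.3%, 24.2% and 21.02% in replicates 1, 2, 7 and 8. The means were 33.4% ± 6.11 (SD, n = 4) and 23.6% ± 2.24 (n = 4). The sides overlapped, because replicate 5 lay below replicate 2. As a share of aligned reads only, the values were 43.6%, 50.9%, 33.4% and 47.7% in replicates 3 to 6 and between 27.2% and 31.2% in the others, and here the sides did not overlap. In the share of all reads, 7 of the 8 heat libraries (all but replicate 8) lay above each of the 20 ancestor, control and oxidative libraries, which ended at 22.7%. In the control population this share was 18.1% ± 4.09 (n = 4) in replicates 3 to 6 and 18.7% ± 3.86 (n = 4) in replicates 1, 2, 7 and 8, a difference smaller than either SD. In the ancestor it was 18.7% ± 3.11 (n = 4) in replicates 3 to 6 and 11.2% ± 0.772 (n = 2) in replicates 7 and 8, with no overlap.

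**Figure D1:**
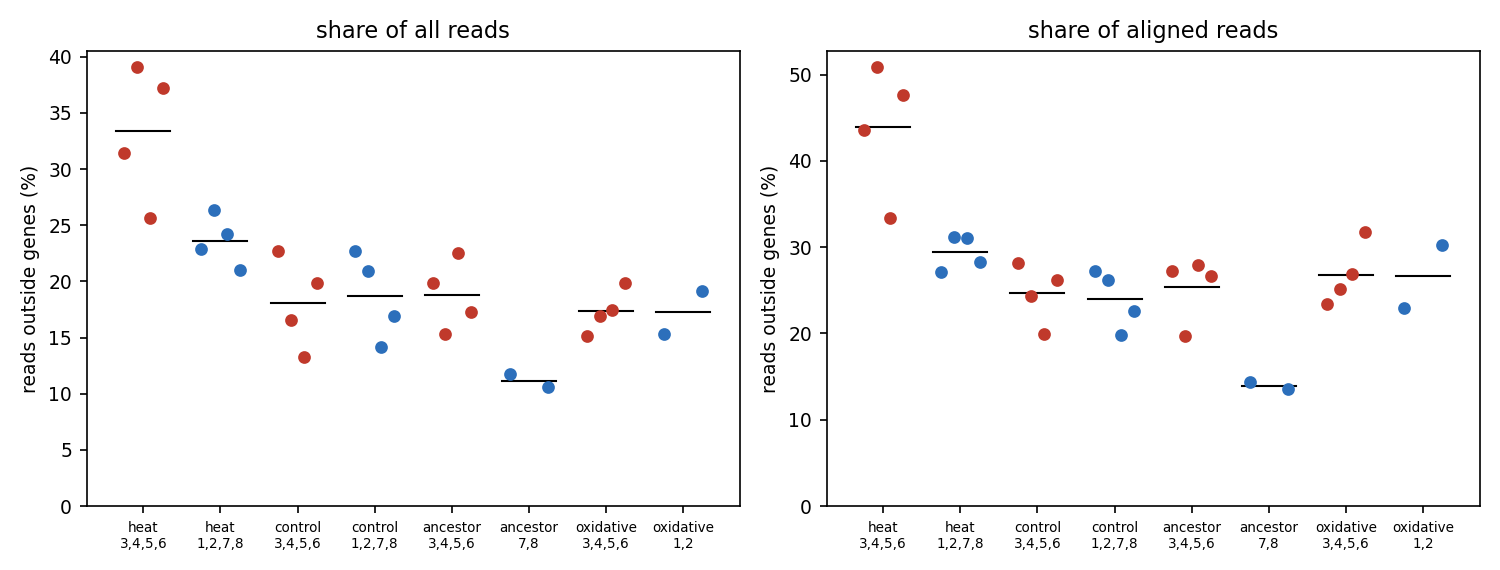
Reads aligned but assigned to no gene in counting (reads outside genes), in percent of all reads (left) and of aligned reads (right), by population and replicate set. Points are libraries and black lines are means. Heat replicates 3, 4 and 6 lie above 31% of all reads and heat replicate 5 at 25.6%, beside 21.02% to 26.3% in the other heat libraries.

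Over the whole transcriptome the division was not the main difference among the heat libraries, and the data did not show 2 compact states. Distances between libraries were taken as the root mean square difference over 11952 genes in log2 CPM (gene counts scaled to counts per 1e6 after TMM scaling, with a prior count of 2). Replicates 3 to 6 had a mean distance of 0.61 log2 units from each other over 6 pairs (0.57 to 0.68). Replicates 1, 2, 7 and 8 had a mean of 0.89 over 6 pairs (0.44 to 1.20), and the 16 pairs across the sides had a mean of 0.82 (0.63 to 1.25). Replicates 7 and 8 were each other's nearest heat library at 0.44. The nearest heat library to both replicates 1 and 2 was replicate 5, from the opposite side, at 0.87 and 0.75. Replicates 3 to 6 each had their nearest heat library on their own side, but the sides were not separate: replicate 3 was nearer to replicates 7 and 8 (0.63 and 0.66) than to replicate 5 (0.68). Replicate 5 was nearer to ancestor replicate 3 (0.55) than to any heat library (0.57). Replicates 1, 2 and 7 were likewise nearest to a library of another population. These were control replicate 2 (0.68), ancestor replicate 3 (0.69) and ancestor replicate 8 (0.43).

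The first principal component of the 8 libraries held 46.2% of the variance and the second 17.4%. On the first, replicate 1 scored 94.2, replicates 2 and 5 scored 18.3 and 15.1, and the remaining libraries lay between -36.3 and -14.0. This order mixed the sides. On the second component, replicates 3 to 6 scored between -26.0 and -15.5, replicate 1 scored 1.12, and replicates 2, 7 and 8 scored 21.7, 33.7 and 33.9. The division thus lay along the second component. The share of gene counts in the 100 most abundant genes was 25.1% in replicate 1, and between 33.9% and 43.3% in the other heat libraries.

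**Figure D2:**
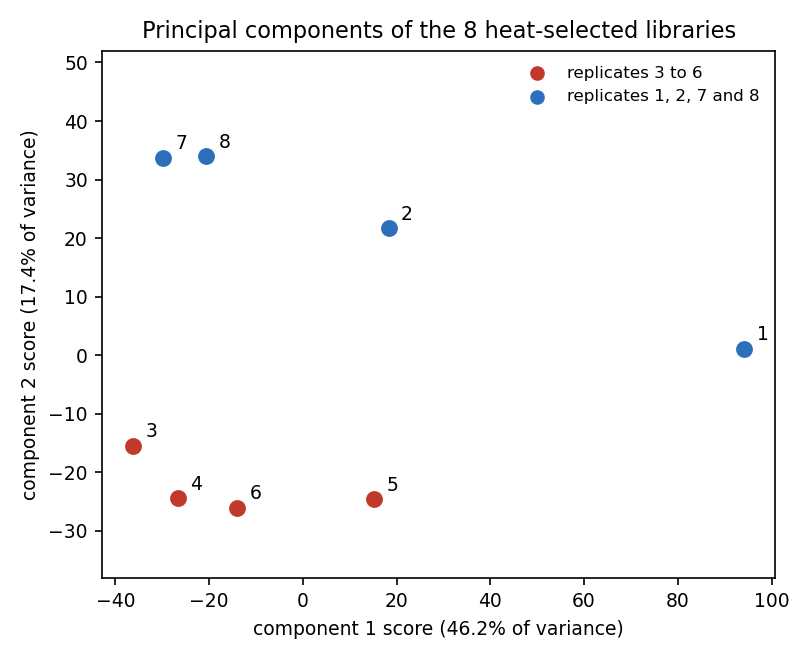
Scores of the 8 heat libraries on the first and second principal components of log2 CPM, with percent of variance on the axes and replicate numbers beside the points. Replicates 3 to 6 (red) lie below the others (blue) on component 2, and replicate 1 lies far from all others on component 1.

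Among 11952 genes, 527 were higher in every library of replicates 3 to 6 than in any of replicates 1, 2, 7 and 8, and 301 were lower (4.41% and 2.52% of the genes tested). With a minimum of 2-fold between the mean log2 levels, 212 were higher and 73 lower (1.77% and 0.611%), and with a minimum of 4-fold, added after seeing the data, 49 and 9 (0.41% and 0.0753%). These percentages are themselves the values that define the division. Of the genes without overlap, those nearest to the 2-fold limit had log2 differences of 1.0007 inside and 0.9983 outside among the higher genes, and of -1.0071 and -0.9954 among the lower. The 212 higher genes had a median log2 difference of 1.39 and reached 5.36, and 17 of them were past 8-fold. The 73 lower genes had a median of -1.27 and reached -2.65, and 0 were past 8-fold. Over all genes the median difference was 0.00099.

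The higher genes were spread over all levels of abundance, while the lower genes lay mostly among the less abundant. In 4 bins of 2988 genes each, from the least to the most abundant, 50, 50, 51 and 61 genes were higher and 36, 18, 10 and 9 were lower. The least abundant bin ended at a mean of 2.17 log2 CPM, and 3 counts stood for 0.321 to 2.13 CPM in the heat libraries, so that many of the lower genes rest on few counts.

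The count of genes was set beside those of the other 34 ways to divide the 8 libraries into 4 and 4. Each gene falls into exactly 1 of the 35 divisions, so the counts share out the 11952 genes. With no minimum fold the division of replicates 3 to 6 held 828 genes and ranked 4, whereas the other divisions had a median of 230.5 and a range of 55 to 1950. The most genes (1950) separated replicates 1, 2, 5 and 6 from 3, 4, 7 and 8. At 2-fold or more, replicates 3 to 6 against the rest had 285 genes and ranked 2 of 35, after 511 genes for that same other division, and beside a median of 35 in the 34 others. The rank was 5 with library totals in place of TMM, and the 285 genes became 466 or 462 without heat replicate 5 or 7. At 4-fold or more it had 58 genes and ranked 1, while the others had at most 11 and a median of 1. The largest differences thus lay in this division, and smaller ones were more frequent in another.

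**Figure D3:**
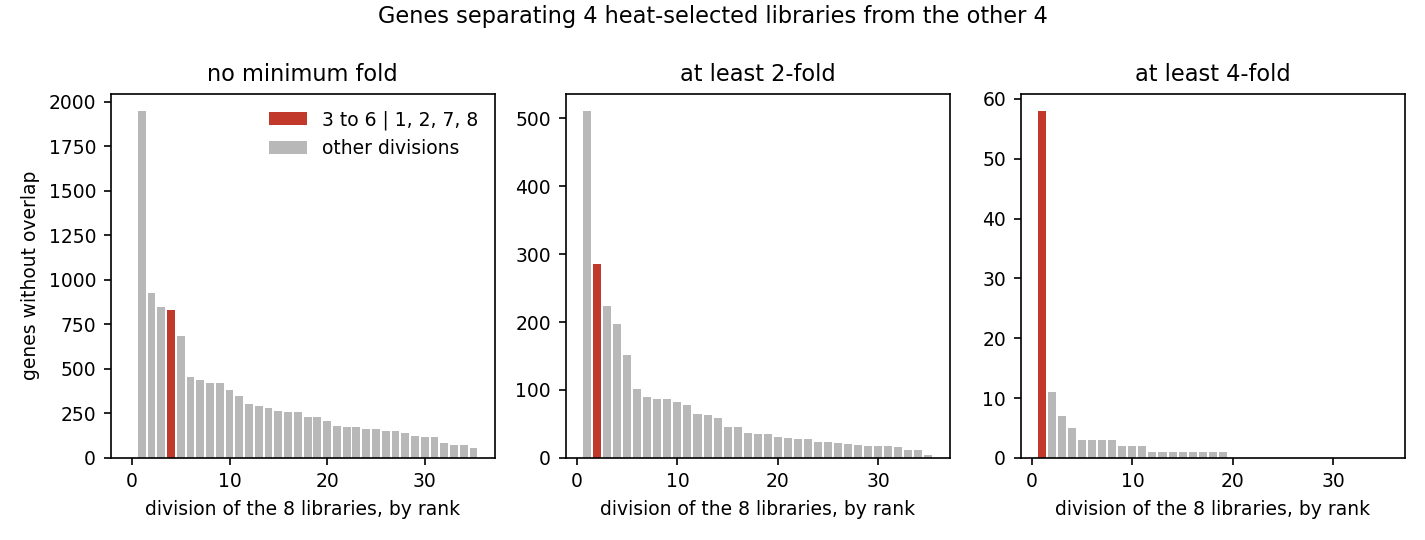
Number of genes without overlap for each of the 35 divisions of the heat libraries into 4 and 4, ranked, with no minimum fold, at least 2-fold and at least 4-fold. The division of replicates 3 to 6 from the rest (red) holds 828, 285 and 58 genes, at ranks 4, 2 and 1.

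Replicates 1 and 2 were far from replicates 7 and 8, so each pair was also set against replicates 3 to 6 on its own. Against replicates 1 and 2, 851 genes were higher and 648 lower at 2-fold or more without overlap (7.12% and 5.42%). Against replicates 7 and 8 the counts were 421 and 191 (3.52% and 1.6%). Both comparisons shared 136 higher and 40 lower genes, which is 16% and 6.17% of the first lists and 32.3% and 20.9% of the second. A further 14 genes were higher against replicates 1 and 2 but lower against 7 and 8, and 8 the reverse. Most of the genes in either list thus missed the 2-fold or no-overlap limit in the other, which does not show that they lack a difference there. The shared fractions were above the shares of all genes. For the higher genes 16% stood beside 3.52% and 32.3% beside 7.12%, and for the lower 6.17% beside 1.6% and 20.9% beside 5.42%. Both comparisons use replicates 3 to 6, so some sharing is built in.

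The largest difference was in FL81_06793, which stood at 225, 227, 180 and 175 CPM in heat replicates 3, 4, 5 and 6. It stood at 3.99, 6.38, 2.89 and 5.52 CPM in heat replicates 1, 2, 7 and 8, a log2 difference of 5.36. FL81_06792, with the adjoining identifier, stood at 174, 156, 141 and 135 CPM and at 4.44, 6.38, 3.19 and 4.64 CPM in the same order, a difference of 4.94. For both genes, all 4 libraries of replicates 3 to 6 were high and the other heat libraries were low. The highest level of FL81_06793 was 11.9 CPM among control, 3.05 CPM among ancestor and 8.95 CPM among oxidative libraries. The highest levels of FL81_06792 were 14.2, 2.69 and 5.12 CPM in the same order, so no library outside heat replicates 3 to 6 came near them. The files do not show whether these identifiers lie side by side in the genome or share near-identical sequence, so reads may have been split between them.

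In the opposite direction, FL81_05130 stood at 8.31, 13.9, 21 and 12.1 CPM in heat replicates 3, 4, 5 and 6. In replicates 1, 2, 7 and 8 it stood at 226, 65.0, 85.6 and 40.0 CPM, a log2 difference of -2.65. The sides did not overlap, and replicate 1 lay far above the next library. The control libraries held 27.9 to 134 CPM, the ancestor 27.7 to 178 and the oxidative 30.0 to 87.6, all above heat replicates 3 to 6. FL81_17525 stood at 1.28, 0, 1.5 and 0.379 CPM in replicates 3 to 6, on 0 to 7 counts per library, and at 4.88, 3.19, 8.35 and 8.03 CPM in replicates 1, 2, 7 and 8 (-2.63). Its oxidative libraries, at 0.373 to 2.85 CPM, overlapped the low side.

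**Figure D4:**
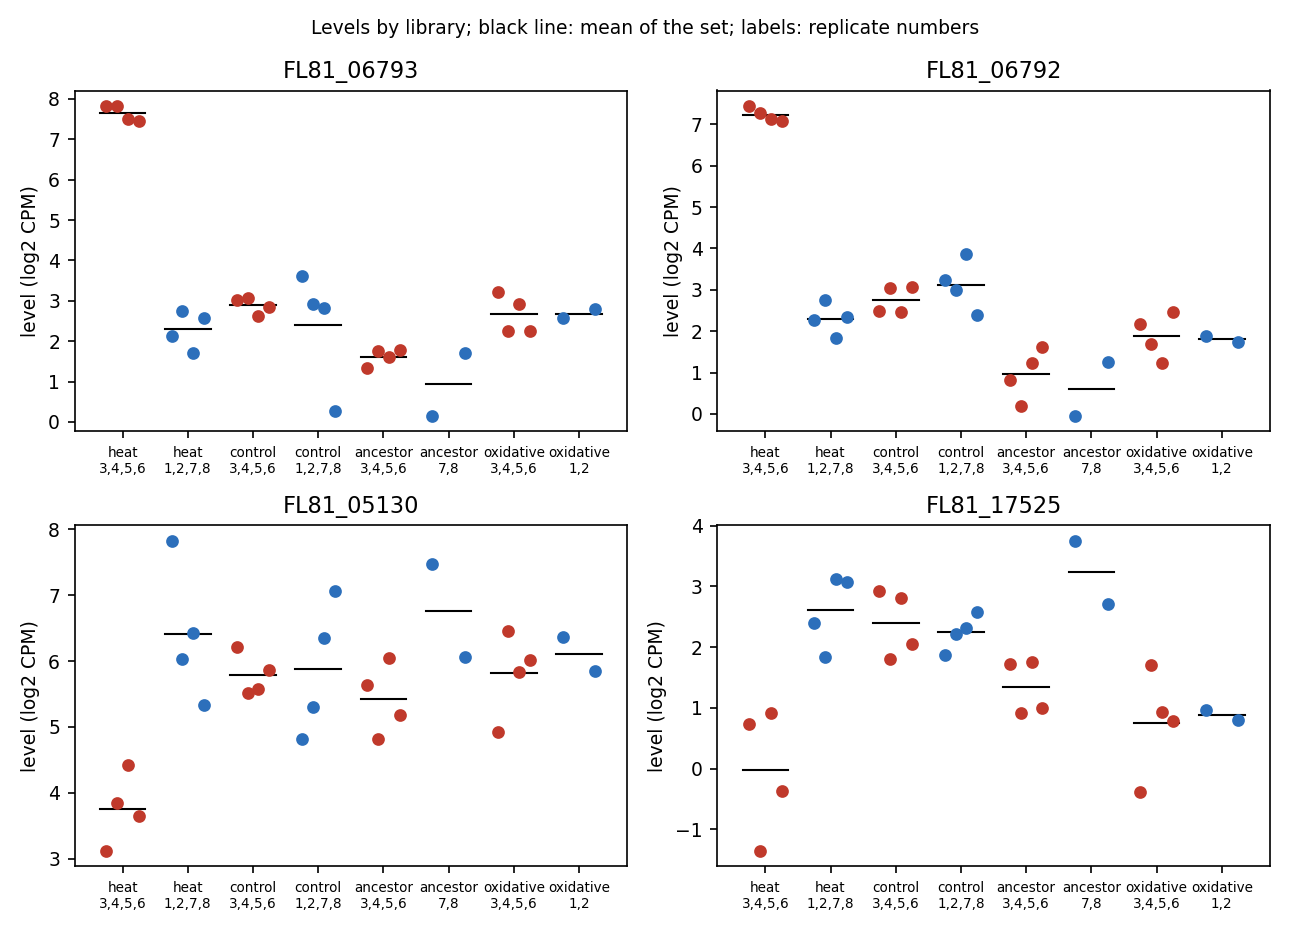
Levels in log2 CPM, by population and replicate set, of 2 genes in each direction. They had the largest differences among genes without overlap and with a heat mean of at least 1 log2 CPM. Points are libraries, black lines are means and the labels give replicate numbers. FL81_06793 and FL81_06792 are high only in heat replicates 3 to 6, while the levels of FL81_17525 in heat replicates 3 to 6 overlap those of the oxidative libraries.

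The ancestor, control and oxidative libraries, which had no part in the division, were used to place each side. Replicates 3 to 6 lay above all 20 of these libraries in 153 genes and below all of them in 20 (1.28% and 0.167% of the genes tested). Replicates 1, 2, 7 and 8 lay above all of them in 5 genes and below in 2 (0.0418% and 0.0167%). The 153 included 97 of the 212 higher genes and the 20 included 10 of the 73 lower genes, shares that rest partly on the values that chose the genes. The 4 libraries of the second side vary more among themselves. Without replicate 1, 7 or 8 the total of 7 genes for that side became 26, 17 or 20. Without replicate 5, the total of 173 for replicates 3 to 6 became 306. Leaving out a library can only keep or raise such a total, so these rises do not measure the spread.

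FL81_21666 showed the widest gap below the other populations. It held 255, 287, 410 and 346 CPM in heat replicates 3, 4, 5 and 6 and 1631, 884, 758 and 681 CPM in replicates 1, 2, 7 and 8. The 20 libraries of the other populations held 683 to 1519 CPM. All of these lay well above replicates 3 to 6, while replicate 8 was level with the lowest of them and replicate 1 above the highest. FL81_10281, the gene with the next gap below, had 0 to 2 counts per library in replicates 3 to 6 and 0.638 to 8.20 CPM in the rest of the heat population.

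For each of the 285 genes past 2-fold, the mean log2 level of each other population was compared with those of both heat sides. The control mean was nearer to replicates 1, 2, 7 and 8 for 182 of the 212 higher and 58 of the 73 lower genes, or 85.8% and 79.5%, against 58.3% of all genes. The ancestor mean was nearer to that side for 179 and 52 genes (84.4% and 71.2%, against 53.0% of all genes). The oxidative mean was nearer to it for 123 and 33 genes (58.0% and 45.2%, against 52.4%). These counts use the heat means that chose the genes and are a description. For the median gene of the 212, each of the 3 populations lay between the sides: the control mean was 1.21 log2 units below replicates 3 to 6 and 0.23 above the others, the ancestor mean 1.10 below and 0.36 above, and the oxidative mean 0.92 below and 0.59 above. As a share of gene counts, the 212 genes were 3.56% ± 0.135 (SD, n = 4) in heat replicates 3 to 6, as the choice of genes requires, and 1.39% ± 0.278 (n = 4) in the other heat libraries. The oxidative libraries held 2.60% ± 0.0876 (n = 4) in replicates 3 to 6 and 2.55% ± 0.0168 (n = 2) in replicates 1 and 2. The control held 2.00% ± 0.0466 (n = 4) and 1.40% ± 0.417 (n = 4), and the ancestor 1.97% ± 0.115 (n = 4) and 1.16% ± 0.180 (n = 2).

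Replicate numbers 3 to 6 were then compared with the remaining numbers in the other populations, to ask whether the same genes separated the same numbers in libraries that the division did not use. The labels do not say whether same-numbered libraries of different populations were handled together, so these contrasts are not shown to be independent of the heat division. Depth followed the numbers in the control population as in heat: replicates 1 and 2 held 2103345 and 1809122 counts, replicates 3 to 6 held 3270394 to 5214590, and replicates 7 and 8 held 15447168 and 10857578. Ancestor replicates 3 to 6 held 4534564 to 6887393 counts and replicates 7 and 8 held 6718320 and 15755610. The part of depth in these contrasts was not tested. In the control population, 55 genes were higher and 37 lower in replicates 3 to 6 than in replicates 1, 2, 7 and 8 (edgeR quasi-likelihood test over 11952 genes, Benjamini-Hochberg adjusted p under 0.05, 0.46% and 0.31%, n = 4 and 4). Of the 212 genes higher in heat replicates 3 to 6, 14 were among the higher genes of this test and 1 among the lower. Of the 73 lower genes, 0 were among the higher and 7 among the lower. These are 6.60% and 9.59% of the lists in the matching direction. The log2 fold change was positive for 168 of the 212 (79.2%), for 15 of the 73 (20.5%) and for 45.3% of all genes. The medians were 0.45 for the 212 genes, -0.50 for the 73 and -0.04 for all genes.

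The count of calls in the control population fell when any of replicates 3 to 8 was left out. It was 31 to 35 without control replicate 3, 4, 5 or 6, 50 without replicate 7 and 24 without replicate 8. In a fit of the control libraries alone it was 6, with 1196 genes at an unadjusted edgeR p under 0.05. Over the 8 fits that left out 1 control library, the median of the 212 genes stayed between 0.33 and 0.51 and that of the 73 genes between -0.61 and -0.40. Against control replicates 7 and 8 alone, 331 genes were higher and 242 lower (2.77% and 2.02%), among them 44 of the 212 and 7 of the 73 in the matching direction. Against control replicates 1 and 2 alone, 4 were higher and 4 lower (0.0335% and 0.0335%), with 2 of the 212 and 2 of the 73. The medians of the lists were 0.29 and -0.67. In this contrast 1586 genes had an unadjusted edgeR p under 0.05, so the few calls do not show that the sets are alike.

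In the ancestor, which has no replicates 1 and 2 here, 55 genes were higher and 25 lower in replicates 3 to 6 than in replicates 7 and 8 (edgeR, adjusted p under 0.05, 0.46% and 0.209%, n = 4 and 2). The higher genes included 18 of the 212 (8.49%) and the lower included 9 of the 73 (12.3%), with 0 in the opposite direction. The fold change was positive for 169 of the 212 (79.7%), for 18 of the 73 (24.7%) and for 52.8% of all genes. The medians were 0.52, -0.44 and 0.03. Leaving out ancestor replicate 7 left 5 calls, replicate 3, 4 or 6 left 36 to 40, and replicate 8 gave 138. A fit without the heat libraries that held the percentage outside genes as a term, added after seeing the data, called 41 genes in the ancestor and 155 in the control. In those fits 168 of the 212 genes were positive in the ancestor and 167 in the control. Of the 73 genes, 6 were positive in the ancestor, with a median of -0.87, and 15 in the control, with a median of -0.51.

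The oxidative population has replicates 1 to 6 here. Between replicates 3 to 6 and replicates 1 and 2, 0 genes were called by edgeR and 0 by DESeq2 (0% of genes tested, n = 4 and 2). At an unadjusted p under 0.05 there were 60 and 52 genes of 11952. Both are far below the fraction of 0.05 that chance alone would give, so the 0 calls do not show that the sets are alike. In the control and ancestor contrasts, 1281 and 1132 genes had an unadjusted edgeR p under 0.05. The fold change was positive for 56.1% of the 212 genes and 47.9% of the 73, beside 51.96% of all genes. The medians were 0.04 and -0.01. Whether the populations differ from each other in these contrasts was not tested.

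The members were also followed library by library. The median log2 level of the 212 genes, relative to the mean of the 20 other libraries, was 1.01 to 1.15 in heat replicates 3 to 6 and -0.51 to -0.19 in the other heat libraries. It was 0.08 to 0.15 in control replicates 3 to 6 and -0.66 to -0.14 in the other control libraries, and -0.02 to 0.28 and -0.56 to -0.24 in the corresponding ancestor libraries. The sets did not overlap in either of these populations. The oxidative libraries lay between 0.06 and 0.27 in both sets. The heat levels restate the choice of genes. For the 73 lower genes the corresponding levels were -0.90 to -0.55 and 0.33 to 0.89 in heat. The control sets, at -0.14 to 0.13 and 0.12 to 0.59, and the ancestor sets, at -0.35 to 0.26 and 0.04 to 0.70, overlapped. The oxidative libraries lay at -0.54 to 0.12 in replicates 3 to 6 and at -0.22 to -0.08 in replicates 1 and 2.

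**Figure D5:**
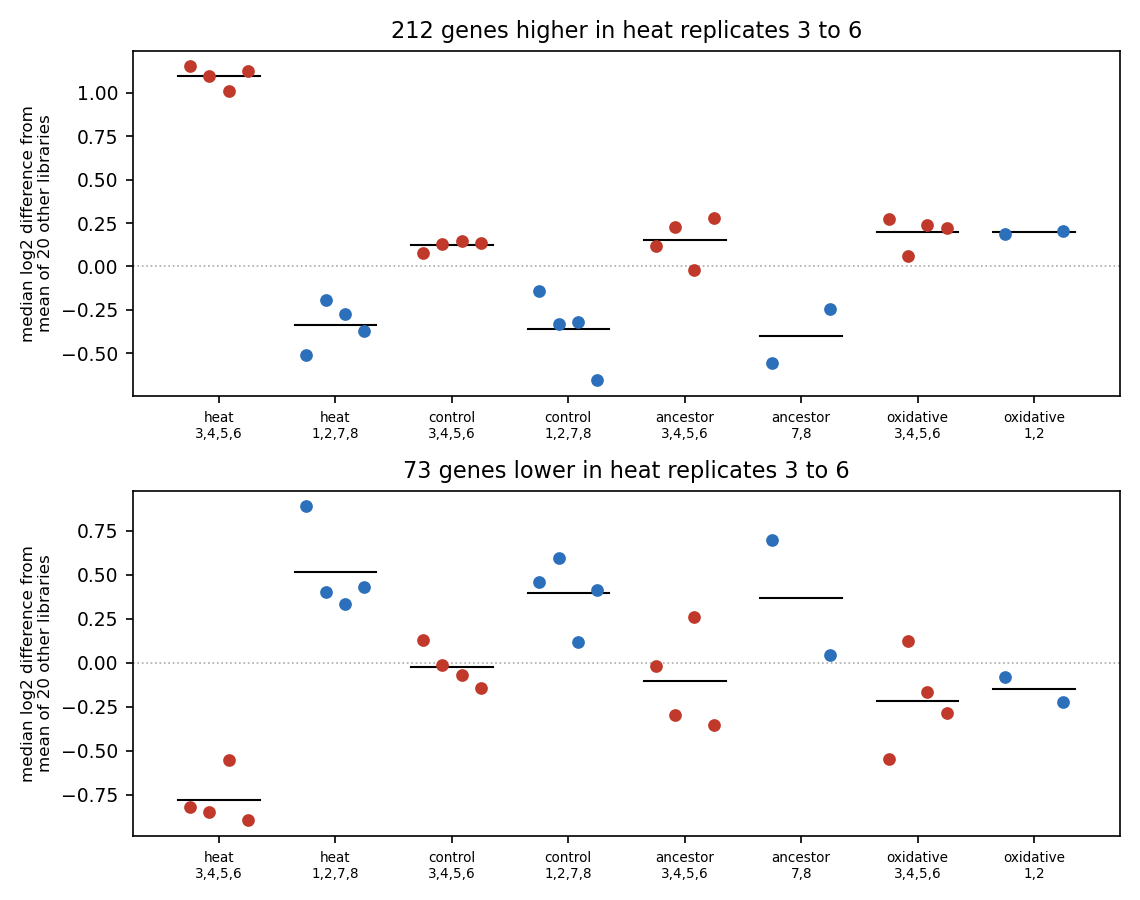
Median log2 level, relative to the mean of the 20 ancestor, control and oxidative libraries, of the 212 genes higher (top) and the 73 genes lower (bottom) in heat replicates 3 to 6. Points are libraries and black lines are means. Among the 212 genes, the control and ancestor sets do not overlap, and the heat values (1.01 to 1.15 in replicates 3 to 6) restate the choice of genes.

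The 4 genes named for the heat division did not pass the test between the control sets, and of these only FL81_17525 passed it between the ancestor sets. FL81_06793 had a log2 fold change of 0.24 (SE 0.43, edgeR adjusted p = 0.907) between the control sets and 0.47 (SE 0.57, edgeR adjusted p = 0.874) between the ancestor sets. FL81_06792 had -0.47 (SE 0.32, edgeR adjusted p = 0.665) and 0.29 (SE 0.49, edgeR adjusted p = 0.925). FL81_05130 had -0.35 (SE 0.46, edgeR adjusted p = 0.861) and -1.44 (SE 0.54, edgeR adjusted p = 0.309). FL81_17525 had 0.17 (SE 0.42, edgeR adjusted p = 0.934) between the control sets and -2.07 (SE 0.48, edgeR adjusted p = 0.0362) between the ancestor sets, the direction it had in heat.

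Both genes with the largest rise between the control sets held at most 6.27 CPM in any heat library. FL81_08636 stood at 34.6, 28.4, 27.4 and 29.0 CPM in control replicates 3, 4, 5 and 6 and at 2.87, 5.94, 0.744 and 1.28 CPM in control replicates 1, 2, 7 and 8 (3.83, SE 0.38, edgeR adjusted p = 1.90e-06). In heat it held 3.43 to 5.11 and 1.21 to 3.19 CPM, sides that did not overlap and that were both near the low control level. It rose in ancestor replicates 3 to 6 as well, from 2.12 ± 0.954 CPM (n = 2) in replicates 7 and 8 to 16 ± 3.75 CPM (n = 4; 2.85, SE 0.45, edgeR adjusted p = 0.00161). FL81_20828 stood at 18.4 ± 2.03 CPM (n = 4) in control replicates 3 to 6 and 1.75 ± 1.39 (n = 4) in the rest (3.79, SE 0.56, edgeR adjusted p = 0.000663), and at 0.444 to 6.27 CPM in the heat libraries, where the sides overlapped.

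Among genes lower in control replicates 3 to 6, FL81_15083 stood at 3.66 ± 2.02 CPM (n = 4) there and at 19.1 ± 9.09 (n = 4) in the rest (-2.42, SE 0.49, edgeR adjusted p = 0.0147). It is also 1 of the 73 lower genes in heat, with 3.83, 2.32, 2.79 and 2.27 CPM in replicates 3, 4, 5 and 6 and 12.9, 5.74, 18.4 and 24.7 CPM in replicates 1, 2, 7 and 8. FL81_18168 fell by 2.44 on the log2 scale in the control (SE 0.57, edgeR adjusted p = 0.0386) and overlapped between the heat sides. The call of FL81_15083 was lost in 3 of the 8 fits that left out 1 control library (edgeR adjusted p up to 0.0913) and that of FL81_18168 in 6 of them (up to 0.220).

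In the ancestor, FL81_19154 stood at 5.76 ± 0.782 CPM (n = 4) in replicates 3 to 6 and had 1 count in each of replicates 7 and 8. The ratio was 54.7, with a 95% exact binomial interval for counting error of 14.8 to 457, and the edgeR adjusted p was 0.00133. It is among the 212 higher genes, with 6.71, 6.49, 6.21 and 7.20 CPM in heat replicates 3, 4, 5 and 6 and 2.22, 0, 0.456 and 0.753 CPM in replicates 1, 2, 7 and 8. FL81_00976 stood at 51.4 ± 25.7 CPM (n = 4) against 1.69 ± 0.751 (n = 2) in the ancestor (4.86, SE 0.63, edgeR adjusted p = 0.000191), and its heat sides overlapped. FL81_21354 and FL81_21711 were lower in ancestor replicates 3 to 6 (-3.73 and -3.51, edgeR adjusted p = 0.0123 and 0.0397). High levels of both were found in replicates 7 and 8 of 3 populations. FL81_21354 held 33.1 and 6.91 CPM there in the ancestor, 12.3 and 18.0 in the control and 14.0 and 18.2 in heat. FL81_21711 held 141.6 and 101, 170 and 113, and 176 and 209 CPM, against 9.88 to 17.1 in control replicates 1 to 6. Heat replicates 1 and 2 held 1.33 and 2.55 CPM of FL81_21354 and 5.77 and 7.65 CPM of FL81_21711, so replicates 1 and 2 did not share this level with 7 and 8. The call of FL81_21711 was lost in each of the 6 fits that left out 1 ancestor library and that of FL81_21354 in 3 of them. The call of FL81_19154 was lost without ancestor replicate 7 (edgeR adjusted p = 0.0619), and that of FL81_00976 held in all 6.

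The mean share of all reads that lay outside genes was higher in heat replicates 3 to 6, although the sides overlapped. The relation of this share to each gene was therefore measured in the 20 libraries of the other populations, within populations. At an adjusted p under 0.05, 520 genes rose and 1033 fell with that share (edgeR, slope per 10 percentage points, 4.35% and 8.64% of 11952). Of the 212 genes higher in heat replicates 3 to 6, 17 rose with it and 3 fell (8.02% and 1.42%). Of the 73 lower genes, 2 rose and 5 fell (2.74% and 6.85%). The median slope was 0.16 for the 212 genes, -0.04 for the 73 and 0.05 for all genes. With the replicate number as a block, 0 genes were called and the medians changed sign, to -0.30 for the 212 (72 positive) and 0.45 for the 73 (57 positive), so no direction is drawn from them. The count was 0 without ancestor replicate 5 or 8 or control replicate 7 (2243, 2706 and 2878 genes at an unadjusted p under 0.05), and 4151 without ancestor replicate 7. It was 300 without ancestor replicate 3, 181, 416, 306 and 2754 without control replicates 1, 2, 3 and 5, and 816 without oxidative replicate 3. With the share taken of aligned reads 1 gene was called, with 2258 at an unadjusted p under 0.05. In that fit the slope was positive for 159 of the 212 genes (75%, median 0.25). It was positive for 26 of the 73 (35.6%, median -0.19) and for 53.2% of all genes. These signs are opposite to those with the block, so no direction is drawn here either.

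The genes with the steepest slopes were FL81_04536 (2.23 log2 units per 10 points, edgeR adjusted p = 0.0387), FL81_22810 (1.92, edgeR adjusted p = 0.0227), FL81_04032 (-3.42, edgeR adjusted p = 0.0227) and FL81_21711 (-3.38, edgeR adjusted p = 0.0227). With the replicate number as a block the slopes were 0.31, 1.43, -0.37 and -0.25, with edgeR adjusted p of 0.748, 0.236, 0.736 and 0.583. FL81_21711 and FL81_04032 were high in every library numbered 7 or 8, whichever of the 3 populations it came from (101 to 209 and 10.3 to 34.0 CPM) and low in all other libraries (5.19 to 17.1 and 0 to 4.98 CPM). The heat sides overlapped in all 4 of these genes. The heat levels were also corrected with the slopes, a choice made after seeing the data. Of the 8 heat libraries, 7 lay above the highest share (22.7%) among the libraries that gave the slopes. The correction therefore carried the slopes beyond their range. After it, 478 genes had no overlap and at least 2-fold, and 137 of the 212 and 41 of the 73 were among them. FL81_06793 and FL81_06792 then had log2 differences of 5.01 and 4.99, FL81_05130 went from -2.65 to -1.90 and FL81_17525 from -2.63 to -1.67. Slopes that depend this much on single libraries and on the block cannot show how much the correction removed. The part that reads outside genes had in the division was not tested.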

How the data were processed

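Each library came with a deposited file of raw read counts by gene identifier. GSNAP (2013-03-31) and HTSeq are the tools named in the submitters' processing notes. Which build and annotation served, and whether counting used strand, is not given in the sources used here, so overlapping genes on opposite strands and near-identical copies are uncertain. The 5 summary lines, among them reads outside genes (10.6% to 39.1% of all reads) and unaligned reads (15.7% to 37.5%), stayed out of library sizes and tests. The edgeR function filterByExpr, at a minimum count of 10, kept 11952 of 25337 genes. Levels are CPM after TMM scaling in edgeR 4.0.16 (R 4.3.3). The main model had 1 coefficient per population and replicate-number set over all 28 libraries. Standard errors came from the fold change and its F statistic. DESeq2 1.42.0 was an alternative. Thinning drew counts binomially. The test was tried on simulated counts.

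The members, tests and alternatives were chosen with earlier results of these data known. The genes named were the 2 with the largest difference each way per comparison, among genes with no overlap (not required for slopes) and a mean of at least 1 log2 CPM. For the place among other populations they were the 2 with the widest gap each way. The planned gene lists and cell markers had 0 matched members and were not run. Depth sets the precision: 3 counts stand for 0.190 to 2.13 CPM.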

Additional observations from a re-analysis of the deposited data

Results flagged for a closer look

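In 74 groups of 4 to 8 libraries examined, 4 had 1 library far from the others of its group, where chance flags about 1 in 20. FL81_06793, the gene with the largest difference between the heat sides, was at 0.724 CPM in ancestor replicate 7, below the other ancestor libraries (2.13 to 3.05 CPM), and at 0.813 CPM in control replicate 8, below the other control libraries (5.77 to 11.9 CPM). FL81_19283 was at 0.145 CPM in ancestor replicate 7, on 1 count, and at up to 0.582 CPM, on 3 to 6 counts, in each of the other ancestor libraries. FL81_02867 was at 3.89 CPM in oxidative replicate 4 and at 9.68 to 14.9 CPM in the other oxidative libraries.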

How the results depend on the processing

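The 285 genes without overlap and at least 2-fold became 828 with no minimum fold, 58 at 4-fold, 478 after correction for reads outside genes, 1499 with replicates 1 and 2 alone as the second side and 612 with replicates 7 and 8. They became 319 to 466 when 1 heat library was left out, with 466 without heat replicate 5 and 462 without replicate 7, where fewer libraries make a lack of overlap easier. The rank among 35 divisions was 2, and became 5 with library totals in place of TMM, 4 with no minimum fold, 1 at 4-fold and 3 after the correction. With 1 library left out, the place among other populations gave 209 to 306 genes for replicates 3 to 6 and 10 to 26 for the others. Leaving out a library can only keep or raise these totals. The control count of 92 became 222 with DESeq2, 6 in a fit of that population alone, 155 with the covariate, 8 against replicates 1 and 2, 573 against replicates 7 and 8, and 24 to 131 without 1 library. The ancestor count of 80 became 186, 30 and 41 in the first 3 of these settings and 5 to 138 without 1 library, where a lone replicate 7 or 8 is assumed to vary like the other groups. The oxidative count stayed at 0 in all 13 fits. The 1553 genes that moved with reads outside genes became 1 with the share of aligned reads and 0 to 4151 without 1 library. With the replicate number as a block they became 0 (2332 at an unadjusted p under 0.05). The numbers share no stated source, and 20 of 36 same-numbered pairs had deviations correlated above 0.1 (range -0.35 to 0.67). Between control and heat 7 of 8 did (up to 0.67), and between ancestor and heat 4 of 6. Between heat and oxidative 2 of 6 did. No values of differently numbered pairs stand beside these, so the counts cannot show that libraries with the same number go together. The main fits did not take the numbers as pairs, as the labels state no shared source, and these correlations are no ground for leaving pairs out. A shared source of the numbers was not tested. Replicate sets within a population share no number, so no block applies to them. The causes were not tested. The 4-fold limit, the correction, the covariate and the settings for the place among populations were chosen after seeing the data. Among alternative values of the main counts and ranks, 57 were classed as the same and 46 as moved, by a set ratio for counts and by any change for ranks. Among alternative values of tested named genes, 161 kept their call and 51 lost it. Of the untested heat differences, 62 moved by less than the spread and 2 by more, and 0 reversed.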

Other observations

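In 2 of the genes named for their place among the populations, all 8 heat libraries lay beyond the 20 other libraries, whatever the side. FL81_02867 stood at 1.92, 0.463, 2.57 and 0.758 CPM in heat replicates 3, 4, 5 and 6 and at 0.444, 0, 1.21 and 1.88 CPM in replicates 1, 2, 7 and 8, while the 20 libraries of the other populations held 3.89 to 32.3 CPM. FL81_19283 stood at 1.28 to 4.17 CPM in replicates 3 to 6 and 2.22 to 3.64 CPM in the others, on 4 to 29 counts per library. It stood at most at 1.23 CPM outside the heat population. The gap in FL81_19283 was narrow: heat replicate 3 had 4 counts (1.28 CPM) and control replicate 1 had 3 counts (1.23 CPM). FL81_15064 lay below the other populations in replicates 1, 2, 7 and 8 (1.28 to 2.66 CPM, against 2.87 to 8.03) and overlapped them in replicates 3 to 6. FL81_07913 was raised on the other side of the division: it held 322, 320, 309 and 285 CPM in heat replicates 1, 2, 7 and 8, 178 to 235 CPM in replicates 3 to 6, and 148 to 252 CPM in the other populations. These genes were named for the widest gaps between replicates 1, 2, 7 and 8 and the other populations, and no test was run on them.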
